A study of Mus musculus with 4 samples.

Results

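Shank and Homer proteins are the scaffolds that hold the deeper layer of the excitatory postsynaptic density together, and their 6 genes (Shank1, Shank2, Shank3, Homer1, Homer2 and Homer3) were followed here through single-nucleus RNA-seq of adult mouse cortex. The members were picked out by gene symbol, and they are 6 of the 32285 genes counted in every library. The set was proposed with earlier results of these data known. The study asked what adolescent exposure to the antipsychotic risperidone leaves behind in the adult cortex. All mice were wild-type C57BL/6J of both sexes. The risperidone group received 4 mg/kg by daily intraperitoneal injection from postnatal day 22 for 21 days and then went without drug until the cortex was taken at postnatal day 90. The saline group had saline on the same schedule. Right hemicortices of each group were combined into a single pool before nuclei were prepared, and each pool was loaded on 2 Chromium lanes, so each condition is 1 sample measured in 2 technical runs. No p-value can be given for a difference between the conditions, and animals cannot be told apart. The intervals below are 95% intervals that cover counting error only.

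Shank proteins are large scaffolds that bind SAPAP (Dlgap) proteins, and through them PSD-95, at one end of the complex. Through a proline-rich motif they bind Homer, whose EVH1 domain also holds metabotropic glutamate receptors such as Grm5 and inositol trisphosphate receptors (Itpr1), and so ties surface receptors to intracellular calcium stores. The long Homer proteins multimerise through a coiled coil. Homer1 also has a short form, induced by neuronal activity, which lacks that coiled coil and competes with the long forms. Counts per gene sum over isoforms, so short and long Homer1 transcripts were not separated here.

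The members lie on 4 chromosomes in the GRCm38 build. Shank1 is at chr7:44310253-44360572, Shank2 at chr7:144001928-144424494 and Shank3 at chr15:89499623-89560261, all on the plus strand. Homer1 is at chr13:93299635-93405129 on the plus strand, Homer2 at chr7:81600481-81707527 on the minus strand, and Homer3 at chr8:70282827-70294361 on the plus strand. Shank2 has the longest gene body, 422.567 kb, and Homer3 the shortest, 11.535 kb. Intronic reads are counted in these files, so levels are compared between genes only per kb of gene body. Shares and ratios of UMIs between members, which carry these lengths, are compared only between lanes or types and give no order of the members.

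Upstream sequence is shown for 1 member of each family as an example, because Homer1 and Shank3 differed in the direction of their values. The RefSeq table for GRCm38.p6 held 1 window each for Shank3 and Homer3 and 2 each for Homer1 and Homer2, and the 250 bases before the RefSeq start are printed 5′ to 3′ for 2 members. The Homer1 window printed is chr13:93303507-93303756 on the plus strand, which lies inside the gene body given above because that annotation starts farther upstream than the RefSeq transcript. The Shank3 window is chr15:89499358-89499607 on the plus strand. In Homer1 capitals mark TGACG or its reverse complement CGTCA (a partial cyclic AMP response element). In Shank3 they mark GGGCGG or its reverse complement CCGCCC (a GC box). Overlapping matches were all counted.
Homer1: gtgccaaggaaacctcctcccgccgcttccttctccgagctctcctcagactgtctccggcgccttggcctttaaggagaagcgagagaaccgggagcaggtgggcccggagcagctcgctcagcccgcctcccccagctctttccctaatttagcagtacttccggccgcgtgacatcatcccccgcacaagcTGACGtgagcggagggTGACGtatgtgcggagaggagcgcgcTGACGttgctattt
Shank3: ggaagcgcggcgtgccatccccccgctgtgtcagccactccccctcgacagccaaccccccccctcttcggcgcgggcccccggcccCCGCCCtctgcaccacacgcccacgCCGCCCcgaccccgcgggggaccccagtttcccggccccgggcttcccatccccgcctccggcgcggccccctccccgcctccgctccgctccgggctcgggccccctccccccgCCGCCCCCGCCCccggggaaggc
The Homer1 window printed held 3 of the partial response elements and 0 GC boxes, and 62.4% of its bases were G or C, whereas the other Homer1 window, chr13:93307784-93308033, held 0 of either and was 46.8% G or C. The Shank3 window held 4 GC boxes and 0 partial response elements, and 82.4% of its bases were G or C. The letters do not separate the families, since the Homer3 window held 4 GC boxes and the Homer2 windows held 8 and 0, and none of these 3 windows held a partial response element. Over all 32851 windows of the same length, 17.8% held the partial element at least once and 0.688% held it 3 times or more, while 32.7% held a GC box and 8.47% held 3 or more. These motifs were looked for after the fold changes were known, and a match is a description of the letters only.

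The 4 lanes listed 23450 to 29986 nuclei and 119736937 to 203675013 UMIs. Depth differed with the condition: median UMIs per nucleus were 3297 and 4049 in saline against 5648 and 7765.5 in the risperidone lanes, and the smallest nucleus listed had 1364 and 1630 UMIs in the saline lanes but 500 in each risperidone lane. Pairs of lanes shared 160 to 221 cell barcodes. Clusters were built without the 6 members and their partner genes and were named from marker genes. A non-neuronal name also asked for under 650 CPM of Camk2a, a listed partner, in the risperidone lanes. The vesicular glutamate transporter Slc17a7 was at 76.9 to 140.4 CPM (UMIs of the gene per 1000000 UMIs of the type) in the glutamatergic clusters, against 22.9 to 31.0 CPM in the PV, Sst, Vip and Lamp5 interneuron clusters. The GABA-synthesising enzyme Gad2 was at 136.4 to 643.3 CPM in those interneurons and at 4.7 to 9.8 CPM in the glutamatergic clusters. Both genes were gates of the naming, so these ranges were set in part by the rule. A glutamatergic name asked for at least 70 CPM of Slc17a7 and under 30 CPM of Gad2, and a GABAergic name for at least 60 CPM of Gad2. Slc17a7 was also at 90.0 CPM in oligodendrocytes, 79.7 CPM in endothelial and 77.8 CPM in mural or fibroblast-like nuclei. One cluster carried striatal markers (Drd2, Rgs9 and Rarb among its leading genes) and held 888 and 873 nuclei in the saline lanes against 443 and 408 in the risperidone lanes, so the dissected cortex was not free of striatal-type spiny projection neurons. RNA of other cells was bounded with the markers of other classes, taking that RNA to have the mix of the whole lane. Under that assumption it made up at most 23.6% and 21.2% of the glutamatergic UMIs in the saline lanes against 10.5% and 9.5% in the risperidone lanes. In PV interneurons the bound was 25.2% and 27.9% in saline against 13.4% and 19.4% in risperidone, and in Sst interneurons 21.0% and 26.6% against 14.5% and 15.9%. The part of this background and of the depth in the differences below was tested only by the alternatives given under the processing.

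Over all nuclei, and per kb of gene body, Shank1 was the most abundant member in the saline pool and Homer1 the next, and in the risperidone pool these members were close to each other. Shank1 stood at 6.68 CPM per kb in the saline pool and 4.43 CPM per kb in the risperidone pool. Homer1 stood at 2.60 and 4.48 CPM per kb. Shank3 followed at 1.54 and 1.28 CPM per kb, then Shank2 at 1.23 and 0.95, Homer2 at 0.61 and 0.56, and Homer3 at 0.13 and 0.16. Not divided by length, the levels in CPM were 336 and 223 for Shank1, 519 and 401 for Shank2, 93.6 and 77.6 for Shank3, 274 and 473 for Homer1, 65.6 and 59.6 for Homer2, and 1.46 and 1.83 for Homer3, saline before risperidone in each case.

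The members differed in their order over the 20 cell types. In the saline pool Shank1, a scaffold of excitatory synapses, was highest in layer 5 extratelencephalic (L5 ET) neurons at 469 CPM, then in L2/3 intratelencephalic (IT) neurons at 416 CPM, and the intervals of these neighbours did not overlap. From L6 corticothalamic (L6 CT) neurons at 380 CPM down to endothelial nuclei at 258 CPM each neighbour overlapped the next. PV interneurons, at 370 CPM, stood among the glutamatergic types, and striatal-type neurons at 149 CPM and astrocytes at 89.2 CPM stood near the foot of the order. Shank2 was highest in L2/3 IT neurons at 687 CPM, which overlapped the glutamatergic clusters with no layer name at 668 CPM, and both were above L4/5 IT neurons at 600 CPM. It was low in Sst (265 CPM) and PV (247 CPM) interneurons, and lowest in astrocytes at 103 CPM. RNA of other cells bears on the interneuron values, since the bound on it would give 0.56 of the Shank2 UMIs counted in PV interneurons of the saline pool and 0.24 of their Shank1 UMIs.

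Shank3, the scaffold whose loss causes Phelan-McDermid syndrome, was within a narrow range over most neurons. It was at 162 CPM in endothelial nuclei, 115 CPM both in striatal-type neurons and in L4/5 IT neurons and 113 CPM in L2/3 IT neurons, each overlapping the next, and at 64.0 CPM in PV interneurons and 32.9 CPM in astrocytes. The endothelial value came from 108 UMIs in the saline pool, of which the bound on RNA of other cells would give 0.36. From endothelial nuclei down to PV interneurons each type overlapped the next in the order.

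**Figure D1:**
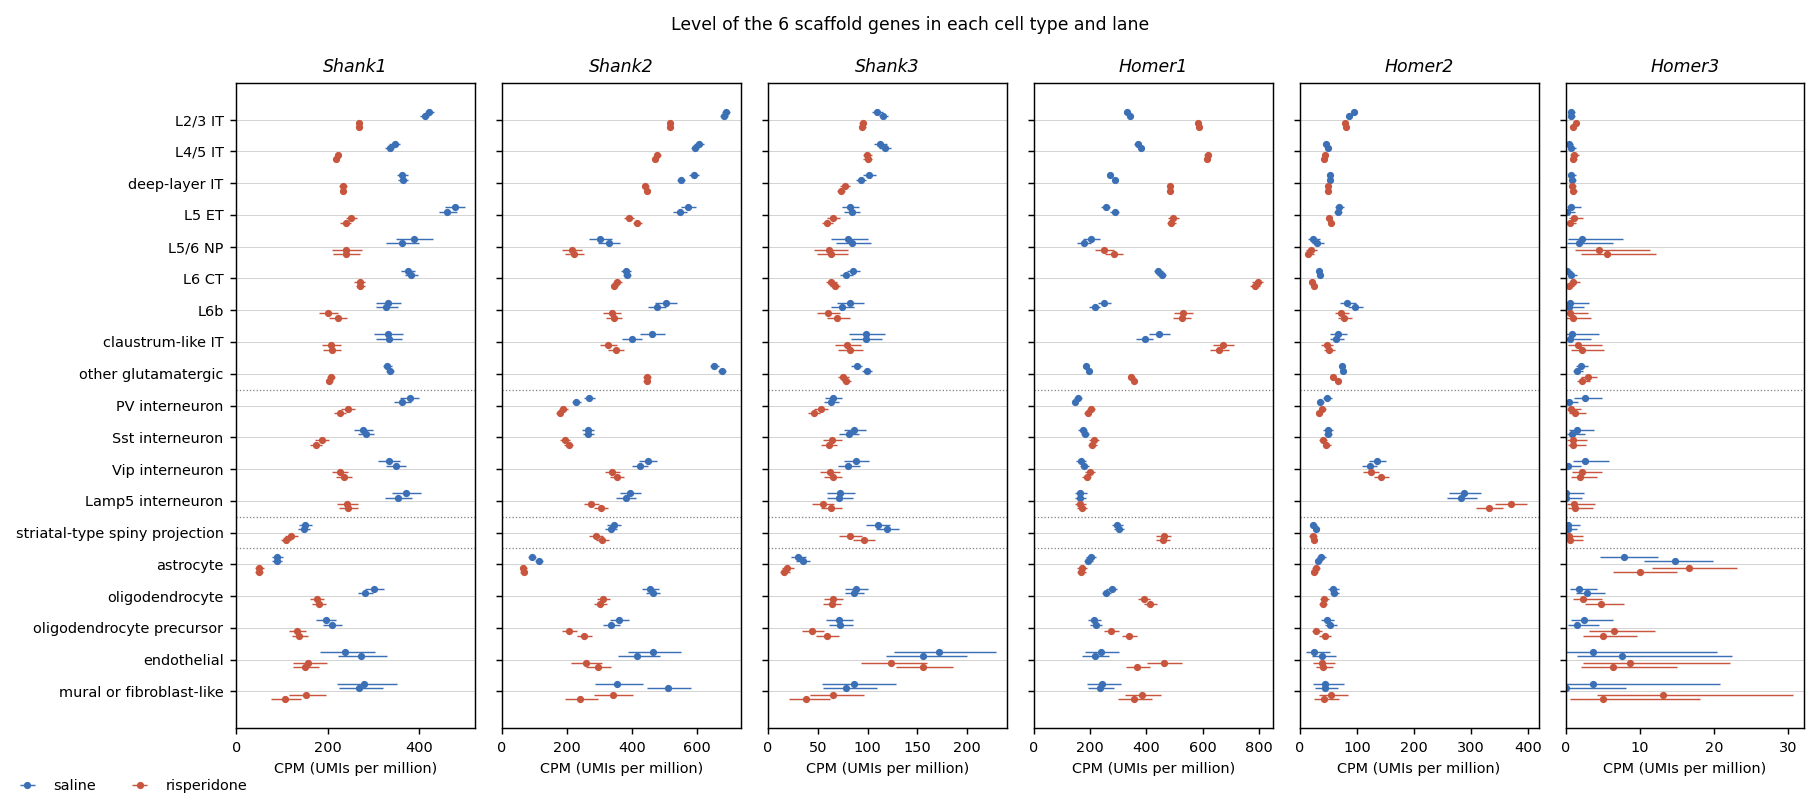
Level of each member, in CPM (UMIs of the gene per 1000000 UMIs of the type, linear axis from 0), in 19 cell types, with 1 point per lane (blue saline, red risperidone) and bars for the exact 95% Poisson interval, which covers counting error only. Homer1 reached 795 and 786 CPM in the risperidone lanes of L6 CT neurons, Homer2 stood apart in Lamp5 interneurons in all 4 lanes, and Homer3 stayed under 20 CPM in every lane shown. Microglia, with 14 and 15 nuclei in the saline lanes, are left out.

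Homer1 had another order. In the saline pool it was highest in L6 CT neurons at 449 CPM, overlapping claustrum-like IT neurons at 415 CPM, which overlapped L4/5 IT neurons at 375 CPM. L2/3 IT neurons followed at 338 CPM without overlap with L4/5 IT. The 4 interneuron types held the last 4 places, from Sst at 178 CPM to PV at 151 CPM. In the risperidone pool L6 CT neurons were again first, at 790 CPM and now apart from claustrum-like IT neurons at 665 CPM. Lamp5 interneurons at 168 CPM and astrocytes at 169 CPM were lowest there, with overlapping intervals.

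Homer2, which encodes a long Homer with a coiled coil, stood out in 1 interneuron type. Lamp5 interneurons carried 285 CPM in the saline pool and 348 CPM in the risperidone pool, apart from Vip interneurons at 128 and 134 CPM, whereas PV interneurons had 41.3 CPM in saline. In Lamp5 interneurons Homer2 gave 63.6% and 63.3% of the Homer UMIs in the saline lanes against 69.1% and 65.8% in the risperidone lanes, against 17.8% and 17.4%, and 9.25% and 9.50%, in glutamatergic neurons. After every nucleus was thinned to 2000 UMIs, Homer2 was seen in 44.1% and 41.5% of Lamp5 nuclei in the saline lanes and in 9.9% and 6.5% of PV nuclei. Nuclei shallower than 2000 UMIs were left out of these shares, which were 93 and 36 Lamp5 nuclei and 212 and 80 PV nuclei in the saline lanes. The bound on RNA of other cells would give 0.06 of the Lamp5 Homer2 UMIs in saline. The place of the peak depended on how nuclei were classed: when each nucleus was classed by its own marker UMIs, without clusters, Homer2 was at 307 CPM in Vip and 118 CPM in Lamp5 interneurons of the saline pool, and Vip interneurons were also highest for Shank1 (614 CPM) and Shank2 (845 CPM).

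Homer3 was near the limit of detection. Astrocytes had the highest value, 11.7 CPM in the saline pool from 60 UMIs, and the saline lanes alone were at 7.9 and 14.7 CPM against 16.6 and 10.0 CPM in the risperidone lanes, so the conditions overlapped. Endothelial nuclei followed at 6.0 CPM from 4 UMIs. In glutamatergic neurons 129 UMIs were counted over both saline lanes and 251 over both risperidone lanes, and after thinning 0.1% to 0.3% of nuclei held a Homer3 UMI. In Lamp5 interneurons of the saline pool 0 UMIs were counted. Homer3 passed the minimum of 10 CPM, averaged over the 4 lanes, in astrocytes and in no other type named, so no fold change of Homer3 is called.

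To compare the conditions, class sums were scaled with trimmed mean of M-values (TMM) factors. A gene was called lower or higher when the log2 fold change of risperidone against saline was at least 0.5 in size, its mean reached 10 CPM, and its risperidone lanes did not overlap its saline lanes. In glutamatergic neurons 5 of the 6 members reached the minimum. Shank1 was lower, Homer1 was higher, and Shank2, Shank3 and Homer2 were below the saline lanes by less than the size rule asks. Of all 7193 genes measured in the class, 7.19% were called lower and 4.24% higher, and in 89.9% the lanes of the conditions did not overlap, so separated lanes alone say little of the members.

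Shank1 in glutamatergic neurons had 384 and 384 scaled CPM in the saline lanes against 235 and 237 in the risperidone lanes. The lanes of a condition were close and the conditions lay far apart, at a log2 fold change of -0.70 (-0.72 to -0.69). Homer1 had 310 and 322 scaled CPM in saline and 536 and 544 in risperidone, a log2 fold change of 0.77 (0.75 to 0.79). Shank2 had 611 and 613 scaled CPM in saline and 439 and 448 in risperidone. Its log2 fold change of -0.46 (-0.48 to -0.45) ended just short of the size rule. Shank3 had 101 and 105 scaled CPM in saline and 81.4 and 82.5 in risperidone, and its log2 fold change was -0.33 (-0.36 to -0.30). Homer2 had 67.5 and 67.9 scaled CPM against 54.8 and 57.2, at -0.27 (-0.31 to -0.23). Both families had members below saline, and Homer1 alone of the members measured was above it. The Shank2 value passed the limit under 4 alternatives, at -0.51 thinned, -0.62 in nuclei called female, -0.56 with clusters weighted equally and -0.52 with RNA of other cells subtracted.

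The share of nuclei with a UMI moved in the same directions at a matched depth. With every nucleus thinned to 2000 UMIs, Homer1 was seen in 40.6% and 41.7% of glutamatergic nuclei in the saline lanes and in 59.2% and 58.7% in the risperidone lanes. Shank1 was seen in 51.4% and 51.0% in saline and in 37.2% and 38.2% in risperidone. Unthinned, the Homer1 shares were 57.2%, 65.0%, 86.3% and 90.8%, in the order of saline lanes 1 and 2 and risperidone lanes 1 and 2, and followed depth as well. Thinning left out 2953 and 1321 glutamatergic nuclei in the saline lanes against 174 and 115 in the risperidone lanes. In PV interneurons the thinned Homer1 shares overlapped, at 27.0% and 27.0% in saline and 31.5% and 26.0% in risperidone. As a background for Shank1, astrocytes, with lane medians of 1569.5 to 2281 UMIs before thinning, showed 14.3% and 14.6% in saline and 8.3% and 7.6% in risperidone. Under 2000 UMIs were 585 of 1066 and 368 of 1123 astrocytes in the saline lanes. In the risperidone lanes these were 916 of 1194 and 409 of 1018.

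**Figure D2:**
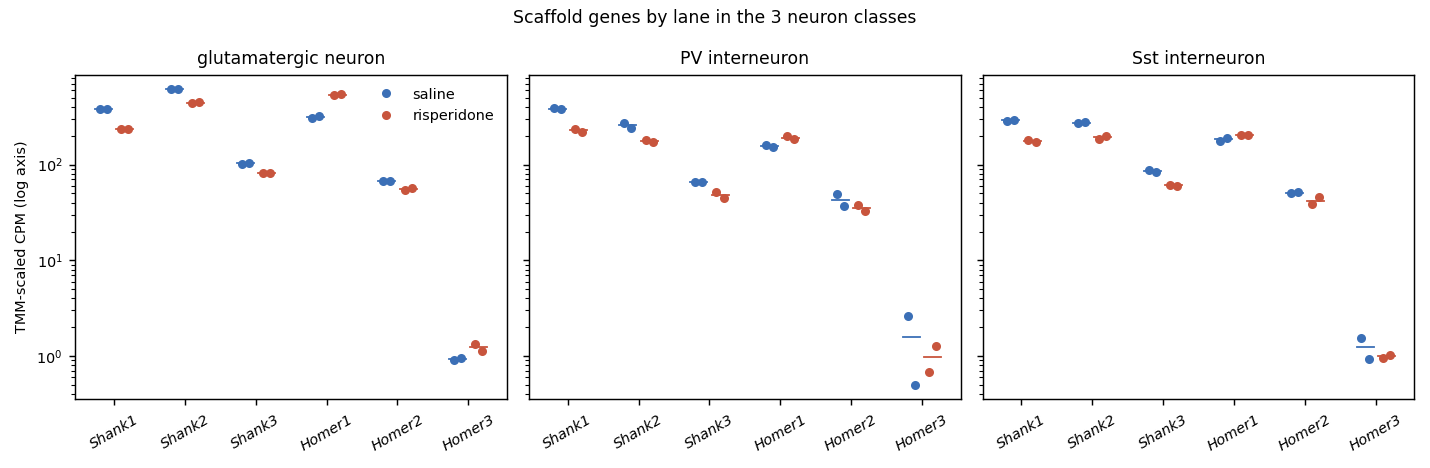
TMM-scaled CPM (log axis) of each member in glutamatergic neurons, PV interneurons and Sst interneurons, with 1 point per lane and a line at the mean of the 2 lanes (blue saline, red risperidone). In glutamatergic neurons Shank1 lay at 384 and 384 in saline and at 235 and 237 in risperidone, and Homer1 at 310 and 322 and at 536 and 544, while its lanes in PV and Sst interneurons lay close together.

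In PV interneurons, the fast-spiking cells that set perisomatic inhibition, 2 of the 5 members measured were lower (Shank1 and Shank2) and 0 were higher, where 7.67% of 7456 genes were called lower and 5.82% higher. Shank1 had 387 and 380 scaled CPM in the saline lanes against 236 and 219 in the risperidone lanes, at a log2 fold change of -0.76 (-0.84 to -0.68). Shank2 had 274 and 240 in saline and 183 and 171 in risperidone, at -0.53 (-0.63 to -0.44). The Shank2 call rested on single lanes, since its log2 fold change was -0.43 without saline lane 1 and -0.48 without risperidone lane 2, and it was -0.18 with RNA of other cells subtracted. Shank3 had 66.3 and 66.2 against 51.6 and 44.6 scaled CPM, a log2 fold change of -0.47 (-0.66 to -0.29) that was not called. Homer1 had 160 and 153 scaled CPM in saline and 197 and 185 in risperidone, a log2 fold change of 0.28 (0.18 to 0.39). Homer2 lanes overlapped, at 49.1 and 37.4 in saline and 37.7 and 33.2 in risperidone.

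In Sst interneurons, which target dendrites, 2 of 5 members were again lower (Shank1 and Shank3) and 0 higher, where 8.64% of 7324 genes were called lower and 5.5% higher. Shank1 had 283 and 296 scaled CPM in the saline lanes against 180 and 171 in the risperidone lanes, at a log2 fold change of -0.73 (-0.84 to -0.62). Shank3 had 88.3 and 84.5 against 61.5 and 59.6, at -0.51 (-0.70 to -0.32). Shank2 had 270 and 278 against 186 and 201, and its log2 fold change of -0.50 (-0.60 to -0.39) lay just inside the limit without reaching it. Homer1 had 177 and 191 scaled CPM in saline and 204 and 204 in risperidone, a log2 fold change of 0.14 (0.03 to 0.26). Homer2 had 50.7 and 51.5 against 38.7 and 45.6, at -0.27 (-0.50 to -0.03). The Shank2 and Shank3 values of interneurons sit so near the limit that which of them was called carries little weight.

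The median log2 fold change over the 5 members measured was -0.33 in glutamatergic neurons, -0.47 in PV interneurons and -0.50 in Sst interneurons, beside -0.02, -0.03 and -0.04 over all genes measured in those classes. Without scaling factors the split of called genes turned over: in glutamatergic neurons 517 genes were lower and 305 higher with TMM factors, against 321 lower and 480 higher with plain CPM. In PV interneurons the split was 572 and 434 with TMM factors and 331 and 696 with plain CPM, and in Sst interneurons 633 and 403 against 391 and 640. Plain CPM left Shank1 lower and Homer1 higher in glutamatergic neurons, at -0.62 and 0.85.

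Across cell types, lower Shank1 was the most widespread of these differences. It was called lower in 9 of 9 glutamatergic types and in 4 of 4 interneuron types. Over the 12 alternatives run by type these counts were 6 to 9 and 3 to 4. The types come from the same pools and lanes, so counts of types, here and below, are not counts of separate observations. The share of all genes called lower in every one of these types was not computed, and the shares by type cannot be combined. The share of all genes called lower was 5.88% in L4/5 IT, 6.83% in L6 CT, 7.31% in deep-layer IT and 7.71% in L2/3 IT neurons, 9.2% in claustrum-like IT, 10.2% in L5 ET, 10.7% in the glutamatergic clusters with no layer name, 11.3% in L6b and 11.5% in L5/6 NP (near-projecting) neurons. It was 7.8% in Vip and 10.4% in Lamp5 interneurons. Over the glutamatergic types the log2 fold change ran from -0.55 in L6 CT neurons to -1.005 in L5 ET neurons. L5 ET neurons, which project out of the telencephalon, had 488 and 473 scaled CPM in the saline lanes against 244 and 235 in the risperidone lanes, so the type that led the saline order no longer led in the risperidone pool, where L6 CT neurons (271 CPM) and L2/3 IT neurons (269 CPM) were above it with overlapping intervals. Striatal-type neurons had 156 and 152 scaled CPM in saline and 115 and 107 in risperidone, a log2 fold change of -0.48 (-0.63 to -0.33) that was not called, where 9.6% of genes were called lower, and microglia had too few nuclei to be read.

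Lower Shank2 was graded by type. Shank2 was called lower in 4 of 9 glutamatergic types and in 2 of 4 interneuron types (PV and Lamp5). These counts moved with the nuclei and the scaling used: 7 glutamatergic types were lower in nuclei called female and 1 in nuclei called male, and 0 interneuron types were lower with plain CPM, in nuclei called male or with RNA of other cells subtracted. Among the glutamatergic and interneuron types the value farthest from 0 was -0.72 (-0.76 to -0.69) in the glutamatergic clusters with no layer name. These clusters had 683 and 715 scaled CPM in saline and 425 and 425 in risperidone. The value nearest 0 was -0.19 (-0.24 to -0.14) in L6 CT neurons, with 389 and 395 scaled CPM in saline and 345 and 342 in risperidone. The clusters with no layer name also held fewer nuclei in the risperidone lanes, 1703 and 1578 against 3193 and 3490. The mixture within them shifted too, since the loss was uneven. Saline before risperidone, the largest cluster had 1309 and 1517 nuclei against 712 and 628, and the smallest 313 and 360 against 147 and 125. Those between had 793 and 796 against 534 and 566, and 778 and 817 against 310 and 259. The part of this shift in the Shank2 value of these clusters was not tested. Their leading genes differed. Glis3, Stac and Prox1 were among those of the cluster with 778 and 817 saline nuclei. Tshz2, Chrm2 and Slc17a6 were among those of the cluster with 793 and 796. These clusters are thus a mixed group counted as 1 of the 9 glutamatergic types, and whether all of them are cortical was not tested. Shank3 was called lower in 1 of 9 glutamatergic types (L5/6 NP) and in 1 of 4 interneuron types (Sst). The L5/6 NP value was -0.5004, on the limit itself, from 170 UMIs in saline and 123 in risperidone, so this call carries little weight. Shank3 values were otherwise below saline by -0.26 to -0.49 in the glutamatergic types that were not called, the ends of that range being L4/5 IT and L5 ET neurons.

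Homer1 was called higher in 11 of 20 types, which were 8 of 9 glutamatergic types, 0 of 4 interneuron types, striatal-type neurons, endothelial nuclei and mural or fibroblast-like nuclei. The share of all genes called higher was 3.62% in the clusters with no layer name, 4.5% in L4/5 IT, 4.66% in deep-layer IT, 4.87% in L6 CT and 5.06% in L2/3 IT neurons, and 6.75% in L5 ET, 7.51% in claustrum-like IT, 8.36% in L6b and 8.59% in L5/6 NP neurons. It was 5.86% in Vip and 7.53% in Lamp5 interneurons. The log2 fold change was 1.14 (1.03 to 1.25) in L6b neurons, the deepest cortical layer, which had 254 and 220 scaled CPM in saline and 517 and 519 in risperidone. It was 0.41 (0.22 to 0.60) in L5/6 NP neurons, the glutamatergic type not called, with 207 and 185 scaled CPM against 241 and 274. In Lamp5 interneurons the log2 fold change was -0.07 (-0.23 to 0.10), with 172 and 169 against 155 and 169 scaled CPM. The lowest glutamatergic value, 0.41, exceeded the highest interneuron value, 0.28 in PV interneurons, although the intervals of these types overlapped, and the difference between the classes could not be tested with 1 pool per condition. Striatal-type neurons, which are GABAergic, had 305 and 310 scaled CPM in saline and 442 and 452 in risperidone, a log2 fold change of 0.54 (0.45 to 0.63) that was called higher, where 6.04% of genes were. In interneurons the Homer1 value depended on which nuclei were counted: it was 0.53 in PV interneurons with doublet-like nuclei kept, and 0.72 in Sst interneurons when each nucleus was classed by its own marker UMIs, both past the limit, but -0.052 in Sst nuclei called male.

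In glia and vessel nuclei the bound on RNA of other cells was a large part of most members' UMIs. In astrocytes Shank1 had 91.0 and 92.9 scaled CPM in saline and 47.6 and 48.6 in risperidone, a log2 fold change of -0.93, yet the bound on RNA of other cells would give 1.20 times the Shank1 UMIs counted in the saline pool and 0.90 times those in the risperidone pool. For Shank2 in astrocytes it would give 1.61 and 1.22 times the UMIs counted. Homer1 in astrocytes had 207 and 201 scaled CPM in saline and 164 and 164 in risperidone, a log2 fold change of -0.31 (-0.45 to -0.18), opposite in sign to glutamatergic neurons. That bound would give 0.43 and 0.56 of these astrocyte UMIs. Homer1 was below 0 in 2 of 20 types. Its unscaled level went from 266 CPM in saline to 403 in risperidone in oligodendrocytes, and from 218 to 309 in their precursors, neither of them called. Astrocytes were called lower for Shank1, Shank2 and Shank3, where 13.2% of genes were. Endothelial and mural or fibroblast-like nuclei were called higher for Homer1, at 0.79 and 0.56, where 13.9% and 14.2% of genes were. Endothelial nuclei were called lower for Shank1 (-0.80) and Shank2 (-0.68), where 9.63% of genes were, and mural or fibroblast-like nuclei for Shank1 (-1.16), Shank2 (-0.72) and Shank3 (-0.74), where 11.6% were. In endothelial nuclei the bound would give 0.76 and 0.72 of the Homer1 UMIs. Oligodendrocytes, the myelinating glia, were called lower for 4 of the 5 members measured (Shank1, Shank2, Shank3 and Homer2), where 9.26% of genes were, at log2 fold changes from -0.80 for Shank1 to -0.53 for Shank3. Oligodendrocyte precursors were called lower for the same 4 members, where 8.59% of genes were, from -0.70 for Shank2 to -0.57 for Shank3. For these 4 members the bound would give 0.51 to 0.55 of the UMIs of oligodendrocytes and 0.73 to 0.95 of those of precursors in the saline pool. In oligodendrocytes Slc17a7 was at 90.0 CPM, within the 76.9 to 140.4 CPM of the glutamatergic clusters. Camk2a was at 638 CPM in their risperidone lanes, against 352 CPM in those of PV interneurons. The bound takes RNA of other cells to have the mix of the whole lane, so it does not cap neuronal RNA alone. How far neuronal RNA went beyond it was not tested, and these calls cannot be assigned to oligodendrocytes themselves.

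Homer2 was called lower in 2 of 9 glutamatergic types and 0 of 4 interneuron types, and in 4 of 20 types in all, the others being oligodendrocytes and their precursors. It was lower in L5/6 NP neurons, at -0.82 (-1.49 to -0.18) from 57 UMIs in saline and 33 in risperidone, and in L6 CT neurons, at -0.61 (-0.80 to -0.42), with 34.1 and 35.8 scaled CPM in saline and 21.4 and 24.2 in risperidone. In Lamp5 interneurons, where it was most abundant, it had 300 and 292 scaled CPM in saline and 349 and 326 in risperidone, a log2 fold change of 0.18 (0.06 to 0.31). In Vip interneurons its lanes overlapped, with 137 and 127 against 120 and 140 scaled CPM, at -0.01 (-0.16 to 0.15).

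**Figure D3:**
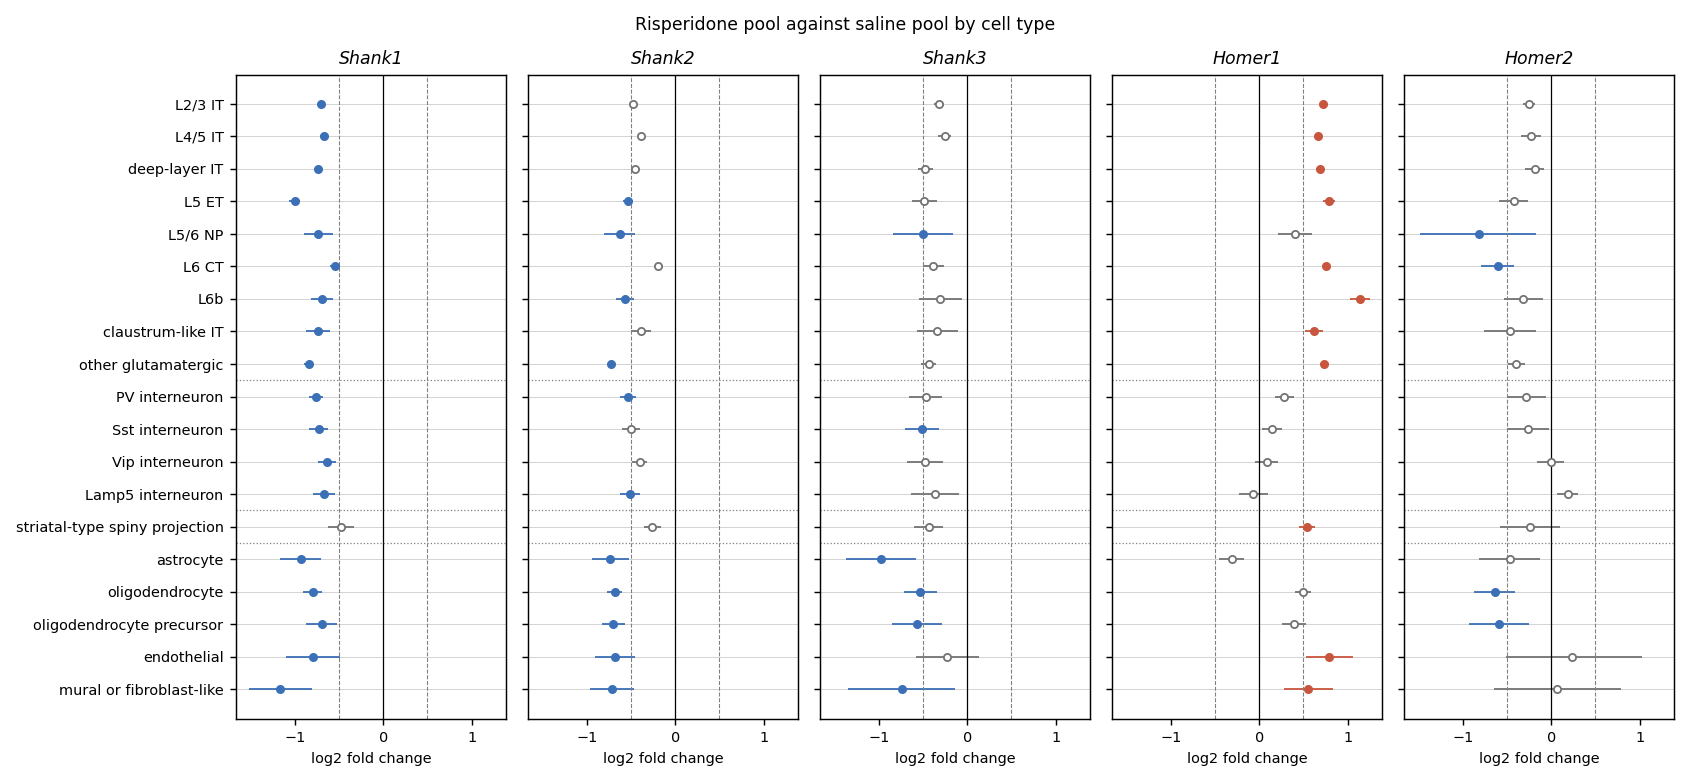
Log2 fold change of risperidone against saline, from TMM-scaled CPM, for the 5 members with a measurable level in 19 cell types, with bars for the exact 95% binomial interval (counting error only) and dashed lines at the limits of the size rule. Filled points were called, blue lower and red higher. Shank1 is filled in every glutamatergic and interneuron type, and Homer1 in 8 of 9 glutamatergic types and 0 of 4 interneuron types. Shank3 and Homer2 are filled in few.

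Homer1 and Shank1 were also set against each other within each lane, a ratio that no scaling between lanes can change. This ratio was chosen after the fold changes were seen. Glutamatergic neurons held 0.807 and 0.838 Homer1 UMIs per Shank1 UMI in the saline lanes against 2.29 and 2.30 in the risperidone lanes. In PV interneurons the ratio was 0.414 and 0.403 in saline and 0.836 and 0.844 in risperidone, and in Sst interneurons 0.625 and 0.644 against 1.13 and 1.19. In Lamp5 interneurons, whose Homer1 level did not differ beyond counting error, it was 0.444 and 0.463 against 0.678 and 0.698. Both risperidone lanes exceeded both saline lanes in 20 of 20 types, microglia with very few UMIs included. The pair was chosen for its opposite fold changes and was not set against other pairs of genes, so this count is a description. Summed over each family, glutamatergic neurons had 0.345 and 0.355 Homer UMIs per Shank UMI in saline and 0.784 and 0.785 in risperidone, and within the Shank UMIs the Shank1 share was 35.0% and 34.9% in saline and 31.1% and 30.8% in risperidone. Shank2 gave 55.7% and 55.6% of them in saline and 58.2% and 58.4% in risperidone. In L5 ET neurons the Shank1 share was 42.1% and 42.2% against 35.5% and 33.4%.

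**Figure D4:**
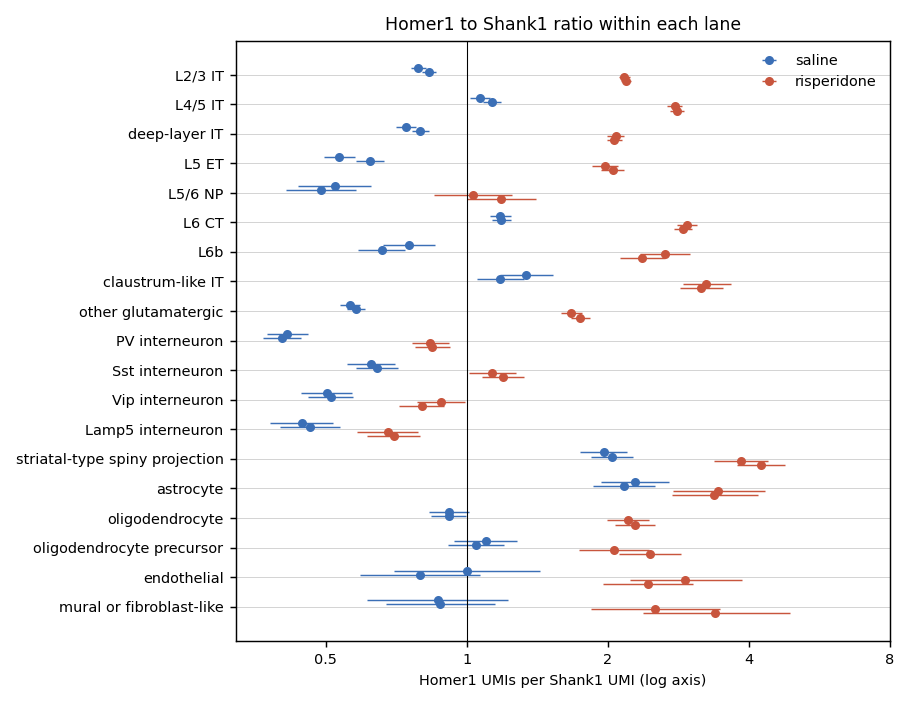
Homer1 UMIs per Shank1 UMI (not divided by length, log axis, a line at equal UMIs) within each lane for 19 cell types, with bars for the exact 95% binomial interval. Both risperidone lanes (red) lie to the right of both saline lanes (blue) in each type. Lamp5 interneurons had the lowest risperidone ratios (0.678 and 0.698) and striatal-type neurons the highest of the types shown (3.84 and 4.24).

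The pools held both sexes, and nuclei were assigned by Xist and Y-linked UMIs. A nucleus with any Xist UMI and no Y-linked UMI was called female, and the reverse was called male. Nuclei with both or neither were left out. Depth and the bound on RNA of other cells differed between the conditions, and their part in these assignments was not tested. In glutamatergic neurons Shank1 had a log2 fold change of -0.85 in nuclei called female and -0.53 in nuclei called male, and Shank2 had -0.62 and -0.30. Homer1 had 0.86 and 0.59, Shank3 -0.33 and -0.32, and Homer2 -0.26 and -0.26, female before male. In PV interneurons Shank1 had -0.86 and -0.62, and in Sst interneurons -0.66 and -0.62. Nuclei of 1 sex in a pool come from an unknown mix of animals, so these gaps were not tested.

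The partners of the scaffolds were read from 3 lists of binding partners and 1 list of immediate early genes. Among 5 Homer-bound receptors and calcium channels, each of them measured in glutamatergic neurons, 1 was higher (Trpc1), 0 were lower and the median log2 fold change was -0.08. Grm5, a receptor that Homer holds, was not called. Among 12 genes of the PSD-95 layer and adhesion, 1 was lower (Nlgn2) and 1 higher (Dlg1), with a median of -0.22. Of 10 actin, endocytosis and signalling partners, 9 were measured, 1 was lower (Agap2) and the median was -0.15. Of 8 immediate early genes 3 reached the minimum in glutamatergic neurons (Egr1, Egr3 and Nr4a1), 0 were called, and the median was -0.12, while Fos, Fosb, Arc, Npas4 and Junb were under it.

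Agap2, a GTPase that binds Homer and enhances phosphoinositide 3-kinase, had 94.3 and 94.6 scaled CPM in saline and 49.1 and 49.8 in risperidone in glutamatergic neurons, a log2 fold change of -0.93 (-0.97 to -0.90). It was also lower in PV interneurons (66.6 and 60.2 against 28.4 and 27.5, at -1.18) and in Sst interneurons (61.5 and 69.1 against 35.5 and 33.7, at -0.93), and was alone among the listed genes in being called the same way in all 3 classes. Dlg1, which encodes the PSD-95 relative SAP97, had 305 and 317 scaled CPM in saline and 482 and 487 in risperidone in glutamatergic neurons, at 0.64 (0.62 to 0.65), but 0.12 in PV and -0.10 in Sst interneurons. Trpc1, a cation channel that Homer binds, had 49.4 and 50.2 against 72.0 and 70.01, at 0.51 (0.47 to 0.55), close to the limit. Nlgn2, the neuroligin of inhibitory synapses, had 44.4 and 42.3 against 29.0 and 29.0, at -0.58 (-0.63 to -0.52).

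Other PSD-95 layer and actin partners in glutamatergic neurons fell short of the rule. Dlg4, which encodes PSD-95 itself, had 134 and 136 scaled CPM in saline and 101 and 103 in risperidone, at -0.40 (-0.43 to -0.37), and it was called lower in PV interneurons at -0.60 (-0.76 to -0.44). Of the Dlgap scaffolds that bind Shank proteins directly, 0 of 4 were called there, at log2 fold changes of -0.37 for Dlgap1, -0.39 for Dlgap2, -0.22 for Dlgap3 and -0.38 for Dlgap4. These 4 were named after their values were seen. Cttn, the actin-binding cortactin that Shank proteins recruit, had 22.5 and 20.9 against 24.6 and 25.5, at 0.22 (0.15 to 0.28). In PV interneurons the PSD-95 layer had 1 gene lower (Dlg4) and 0 higher, with a median of -0.26. In Sst interneurons it had 3 lower (Dlg4, Dlgap3 and Nlgn2) and 0 higher, with a median of -0.15, and Camk2a, a kinase subunit, was lower along with Agap2 among the signalling partners. Of the immediate early genes 1 was measured in PV interneurons and was called lower (Nr4a1, -0.70), and of 2 measured in Sst interneurons 0 were called. With so few genes in a list, each count is to be read against the shares of all genes called that are given with the class.

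**Figure D5:**
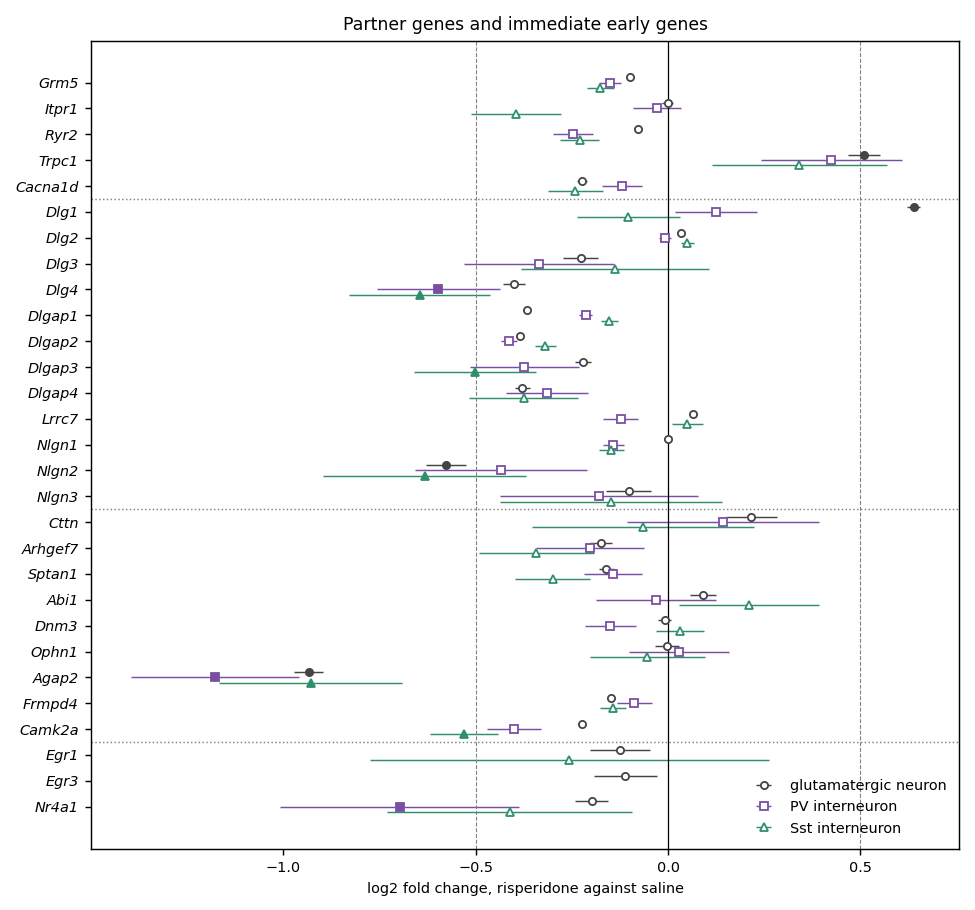
Log2 fold change of risperidone against saline for the partner genes and immediate early genes that reach 10 CPM, grouped by list (dotted lines), in glutamatergic neurons (circles), PV interneurons (squares) and Sst interneurons (triangles), with exact 95% binomial intervals that cover counting error only and dashed lines at the limits of the size rule. Agap2 is filled, that is called lower, in all 3 classes, and Dlg1 is called higher in glutamatergic neurons at 0.64.

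Genes on the opposite strand overlap 5 of the members. The 10x 3′ assay keeps strand, and these genes were counted separately. Gm14372, antisense to Shank2, had 426 and 483 UMIs in the saline lanes against 1574 and 1884 in the risperidone lanes over all nuclei, against 115044 Shank2 UMIs in the saline pool. Ddx49, an RNA helicase gene beside Homer3, had 1180 and 1454 UMIs in saline and 1332 and 1657 in risperidone. Scaled for depth Ddx49 was at 12.4 CPM in saline and 9.13 CPM in risperidone, a log2 fold change of -0.44 (-0.52 to -0.37). At Shank1, 1700008O03Rik had 159 and 209 UMIs against 360 and 412, or 1.73 and 2.36 scaled CPM, at 0.45 (0.26 to 0.63).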

How the data were processed

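Single-nucleus RNA-seq was analysed from 4 lanes, 2 of a saline pool and 2 of a risperidone pool, grouped by their titles. The deposited counts are UMI counts per gene and nucleus; the authors made them with Cell Ranger 8.0.1 on mm10 (submitters' processing notes), with intronic reads counted and cells called by that program. Nothing was normalised before deposit. Nuclei under 500 genes or above 5% mitochondrial UMIs were left out, which kept 29533 and 29981 saline and 25696 and 23283 risperidone nuclei. Then 2184 to 3596 doublet-like nuclei per lane were removed by comparison with simulated doublets, and the rest were clustered (Louvain, resolution 0.5, 2000 variable genes, 30 components, without members and partner genes). The 30 clusters were named by marker lists, with thresholds set after marker levels were seen. Nuclei left without a named type were 13.3% to 15.3% of the nuclei kept in each lane.

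UMIs were summed per type and lane and scaled by TMM (edgeR 4.0.16, R 4.3.3) for fold changes, with DESeq2 1.42.0 size factors as an alternative; other steps used Python 3.11.15, numpy 2.4.6, scipy 1.17.1, pandas 2.3.3 and igraph 0.11.9. Levels carry exact Poisson, folds exact conditional binomial and shares Clopper-Pearson intervals. No test between conditions was run, because each condition is 1 pool. The size rule was checked on simulated counts. Identifiers were matched to GENCODE vM21 for 32235 of 32285 genes. RNA of other cells was estimated from markers of other classes as the smallest bound over the lists, for RNA with the mix of the whole lane. Genes named beside the members are, of the partner and immediate early lists, the 3 largest increases and 3 largest decreases in glutamatergic neurons among genes of at least 10 CPM, any gene called the same way in all 3 classes, genes that overlap a member, and the 3 genes most like each member, leaving out 2 listed partners that are not reported here; other called partners are named because each count is 5 or fewer, after their values were seen. Members, lists and rules were chosen with earlier results of these data known, and the Homer1 to Shank1 ratio, the counts by type and the promoter motifs after the fold changes were seen. Alternatives changed the scaling, depth, doublets, sex, class assignment, cluster weights, background, minimum level and lanes.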

Additional observations from a re-analysis of the deposited data

Results flagged for a closer look

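Genes outside the members that share their loci were also read over all nuclei. Gm14372, antisense to Shank2, was higher in the risperidone pool by 1.304 on the log2 scale (1.20 to 1.41), with both risperidone lanes above both saline lanes, while Shank2 itself had a log2 fold change of -0.49 over the same nuclei. Gm15609, a lincRNA on the opposite strand at Shank3, had 31 and 25 UMIs in the saline lanes against 83 and 106 in the risperidone lanes, a log2 fold change of 1.13 (0.69 to 1.59). Gm44570, antisense to Homer2, had 1 and 8 UMIs in saline and 18 and 19 in risperidone, at 1.42 (0.34 to 2.65), a value from very few UMIs. These 3 genes were under the minimum of 10 CPM that a call asks for, at 4.28 and 10.6 scaled CPM for Gm14372, 0.264 and 0.577 for Gm15609 and 0.0424 and 0.113 for Gm44570, saline before risperidone, so they are values only. Each was marked because it is a signal in genes that the comparisons of the members do not use, above the level in the saline lanes. With the minimum at 1 CPM, 1552 of 13682 genes were called higher in glutamatergic neurons, against 305 of 7193 at 10 CPM. Higher values at low levels were therefore not particular to these genes. Depth per nucleus was also higher in the risperidone lanes, and its part in these values was not tested.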

How the results depend on the processing

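No paired analysis was possible because each condition is 1 pool and its 2 lanes are technical runs that share only a number with those of the other condition. In glutamatergic neurons Shank1 stayed lower (-0.85 to -0.53) and Homer1 higher (0.59 to 0.86) under every alternative run. Members lower there were 2 when nuclei were thinned, in female nuclei, with clusters weighted equally and with RNA of other cells subtracted. Of all genes in that class 656 of 7218, 642 of 7180, 515 of 7263 and 535 of 7114 were lower in these settings, in that order. In the main setting 517 of 7193 were. The member median there was -0.25 with plain CPM, -0.30 in male nuclei, -0.44 with clusters weighted equally and -0.38 after the subtraction, and -0.35 to -0.30 leaving out each lane. Members lower in PV interneurons were 1 with plain CPM, with single-nucleus classes and after the subtraction, and 1 to 3 leaving out each lane. With doublet-like nuclei kept 1 was higher, where 386 of 7458 genes were. Of all PV genes 331 of 7462 were lower with plain CPM, 394 of 7607 with single-nucleus classes and 495 of 7320 after the subtraction. The PV median was -0.59 thinned, -0.62 in female nuclei, -0.28 with single-nucleus classes, -0.18 after the subtraction, and -0.57 to -0.36 leaving out each lane. Members lower in Sst interneurons were 1 with plain CPM, with doublet-like nuclei kept and in male nuclei. Of all Sst genes 391 of 7325, 573 of 7329 and 662 of 7337 were lower in these settings, in that order. With single-nucleus classes 1 member was higher (Homer1, 0.72), where 527 of 7418 genes were. The Sst median was -0.41 with plain CPM, -0.59 thinned, -0.32 in male nuclei, -0.25 after the subtraction, and -0.48 to -0.46 leaving out each lane. Homer1 in Sst interneurons reversed to -0.052 in male nuclei. Partner genes lower in glutamatergic neurons were 1 with plain CPM, where 321 of 7195 genes were. Partner genes higher were 1 with DESeq2 size factors and after the subtraction, where 281 of 7190 and 264 of 7114 genes were, and 1 to 2 leaving out each lane. Partner genes lower were 3 to 5 in PV interneurons and 3 to 5 in Sst interneurons leaving out each lane (5 and 3 without saline lane 2). In PV interneurons 1 partner was higher with plain CPM and at a minimum of 1 CPM, and 0 to 1 leaving out each lane. Of all PV genes 696 of 7462 were higher with plain CPM and 1912 of 13774 at 1 CPM. In Sst interneurons 3 were lower with plain CPM and after the subtraction, and 1 was higher at 1 CPM. Of all Sst genes 391 of 7325 and 529 of 7210 were lower in these settings, and 1881 of 13718 were higher at 1 CPM. Glutamatergic types with lower Shank2 were 7 in female and 1 in male nuclei; interneuron types with lower Shank2 were 0 with plain CPM, in male nuclei and after the subtraction, 1 with doublet-like nuclei kept, and 1 to 2 leaving out each lane. Homer1 was higher in 5 glutamatergic types in male nuclei, and in 1 interneuron type with doublet-like nuclei kept. The alternatives by type were chosen after seeing the data. With single-nucleus classes the highest saline type became Vip interneurons for Shank1, Shank2 and Homer2 and L4/5 IT neurons for Homer1, whose highest type was claustrum-like IT neurons without saline lane 2. The causes were not tested. Values of types with few UMIs (L5/6 NP, vessel nuclei) and of Homer3 have wide counting intervals, and median UMIs per nucleus over all nuclei were lower in the saline lanes.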

Other observations

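Likeness to the members over the 20 cell types of the saline pool was described by Pearson correlation of log2(CPM + 1) among 11783 genes. Cell types share libraries, depth and RNA of other cells, and no p-value is given. The 20 types include microglia, whose Shank3 level in the saline pool came from 1 UMI and whose Homer1 level came from 23 UMIs. Correlations were not computed without microglia, so those of Shank3, and their change between the pools, carry little weight. Closest to Shank1 were Vsnl1 (r = 0.91), C230057M02Rik (0.91) and Pacsin1 (0.90), and closest to Shank2 were Rnf165 (0.92), Camk2a (0.89) and Rbfox3 (0.88). A limit on Camk2a was part of the naming of non-neuronal types. Closest to Shank3 were Nova2 (0.95), 1700016P03Rik (0.92) and Gm5136 (0.92), although the last had 0.64 in the risperidone pool. Closest to Homer1 were Vipr1 (0.86), Neu2 (0.84) and Arc (0.84), with 0.63, 0.73 and 0.80 in the risperidone pool. Homer2 had weaker neighbours, Epha3 (0.75), Ltbp2 (0.75) and Myo3a (0.73), and Homer3, from few UMIs, had Pbxip1 (0.90), Gm7967 (0.89) and Lfng (0.89). Among the members themselves Shank1 and Shank2 had r = 0.70 in the saline pool and 0.74 in the risperidone pool, and Homer1 and Homer2 had -0.22 and -0.26. Homer1 had r = 0.06 and 0.33 with Shank1, 0.37 and 0.60 with Shank2 and 0.10 and 0.53 with Shank3, saline before risperidone.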
